A study of Mus musculus with 10 samples.

Results

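The 10 genes described here encode proteins that the mouse oocyte makes for its own growth, for its coat and for meeting sperm. Zp1, Zp2 and Zp3 encode glycoproteins of the zona pellucida, the extracellular coat of the egg. Izumo1r encodes JUNO, the egg receptor for the sperm protein IZUMO1, Cd9 encodes an egg membrane tetraspanin needed for sperm-egg fusion, and Astl encodes ovastacin, the cortical granule protease that cleaves ZP2 after fertilization. Gdf9 and Bmp15 encode growth factors of the TGF-beta family that the oocyte secretes to the surrounding granulosa cells, and Figla and Nobox encode transcription factors of the oocyte. The genes were chosen by name, and all 10 had a row among the 21437 genes of the expression table, which gives FPKM, a count of fragments divided by the exon length of the gene and by the size of the library.

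The series held 10 RNA-seq libraries in 5 groups of 2: wild-type MII oocytes, control embryos of the 2-cell and the 4-cell stage, and embryos of both stages with Ago2 knocked down (Ago2 kd). Ago2 encodes the Argonaute protein that cleaves RNA guided by small RNAs. Oocytes were taken 16 h, 2-cell embryos 40 h and 4-cell embryos 55 h after hCG, all from superovulated females 7 weeks old. In the methods, zygotes received siRNAs against Ago2, an AGO2 antibody or a mixture of them, and which of these the sequenced embryos received is not given. The labels do not say what the control embryos received, and a scrambled siRNA is the negative control of the methods. Every sample is labelled ICR, while the growth protocol takes embryos from F1 parents, so strain and stage cannot be told apart between oocytes and embryos. The zona was removed with acid before lysis, the number of oocytes or embryos in a library is not given in the sources used here, and nothing says that the 2 libraries of a group came from separate collections, so p-values measure only the spread between these libraries.

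Fully grown oocytes are transcriptionally silent, so their stored mRNAs support meiosis, fertilization and the first cleavage. These maternal mRNAs are degraded in waves, before and along with zygotic genome activation (ZGA) in the 2-cell embryo. The zona, the fertilization machinery and the oocyte growth factors have done their work by then, and textbook accounts place their genes among those switched off after the egg is formed. FIGLA binds E-boxes (letters CANNTG) together with E-proteins in the promoters of the zona genes, and NOBOX binds TAATTA in promoters of oocyte genes. Variants with a last base G (TAATTG) are bound as well. The form TAGTTG is a further known site of the factor.

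Facts of the libraries that bear on these genes were as follows. FPKM summed to between 178681 and 458874 per library, largest in the MII oocytes. FPKM carry no read counts and the depth is unknown. In whole embryos, fewer cells that hold an mRNA and less of it per cell cannot be told apart. In the 4-cell Ago2 kd replicate 1, 16.9% of the genes above 10 FPKM in replicate 2 were below 0.2 FPKM, against at most 6.74% in any other library, so that library stood apart. Oocyte markers (Zar1, Npm2, Ooep, Nlrp5, Mos, Btg4, Oosp1) had rows for 7 of 7 genes and summed to 19366 and 21816 FPKM in MII oocytes, to between 7478 and 9335 FPKM in 2-cell libraries and to between 37.0 and 77.7 FPKM in 4-cell libraries, where 1 of the 7 was listed at 0 in each. Btg4 made up most of these sums in MII oocytes (14252 and 15377 FPKM) and control 2-cell embryos (8212 and 7265 FPKM). Zar1 and Mos were at or below 1.7 FPKM in control 2-cell embryos. Of 12 cumulus and granulosa markers only Foxl2 had a row, and it was listed at 0 in every library. Of 10 sperm markers 3 had rows (Prm1, Prm2, Spaca1), and their sum lay between 0 and 5.87 FPKM, highest in MII oocytes, with 1 to 3 of them listed at 0. Of 7 markers of the 2-cell burst 5 had rows (Zscan4d, Zfp352, Tcstv1, Tcstv3, Usp17lc). They summed to between 343.5 and 668.6 FPKM in 2-cell libraries, at most 115.4 FPKM in MII oocytes and at most 29.1 FPKM in 4-cell libraries. Zfp352, Tcstv3 and Usp17lc were higher in every 2-cell library than in MII oocytes. Tcstv1 was higher in MII oocytes (71.6 and 81.5 FPKM) than in control 2-cell embryos (56.6 and 62.1 FPKM). Zscan4d was above 0 only in control 2-cell replicate 1 (51.3 FPKM). Ago2 itself was not analysed here.

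Sequences at the 3′ ends of the transcripts are shown first, because the poly(A) tail and the elements that control its length decide how a stored oocyte mRNA is translated and degraded. The windows come from the GENCODE M21 principal transcripts (GRCm38), are written 5′ to 3′ in lower case and hold at most 30 bases, from 18 before to 6 after the poly(A) signal AATAAA. The signal is in capitals, and so is the cytoplasmic polyadenylation element TTTTAT where it falls in the window. The 7 genes are those with more than 2 FPKM in oocytes, in the order in which they are described later.
Zp2 (chr7:120132366-120132395, minus strand): tcactgattggacttgcaAATAAAgagact
Zp3 (chr5:135988589-135988618, plus strand): accttgtatcccttccgcAATAAAagaaga
Izumo1r (chr9:14900033-14900062, minus strand): tcctatcatggtaccttcAATAAAaggcta
Astl (chr2:127357610-127357639, plus strand): catgtgggaaaaggtagaAATAAAgttggg
Gdf9 (chr11:53437864-53437893, plus strand): ggTTTTATgtgacggaagAATAAActgttg
Bmp15 (chrX:6314123-6314152, minus strand): attttcttaatcttaaagAATAAAttttca
Nobox (chr6:43303703-43303732, minus strand): taggcagtgcatgcaataAATAAAacagta

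Of the 10 genes, 9 carried AATAAA in the last 50 bases of the transcript, as did 59.2% of 21627 protein-coding genes. Figla had ATTAAA in its place, which 16.2% of the genes carried. The element TTTTAT or TTTTAAT was found in the last 100 bases of Gdf9 only, 39 bases before the end, and in 16.6% of all genes. The annotated 3′ UTRs of the zona genes were short, with 34 bases for Zp1, 49 bases for Zp2 and 13 bases for Zp3, whereas the median over all genes was 778 bases and 7.45% of the genes had 60 bases or fewer. In Zp3 the stop codon starts 16 bases before the end and the poly(A) signal 18 bases before it, so that the stop codon lies within the signal. In the windows above, 7 bases of Zp2 and 23 bases of Zp3 are coding sequence, stop codon included. Bmp15 had the longest 3′ UTR of the 10 genes, with 1523 bases, and those of Astl, Cd9, Gdf9, Izumo1r, Nobox and Figla had 877, 395, 360, 333, 281 and 120 bases. A match of letters is a description and does not show that an element acts.

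**Figure D1:**
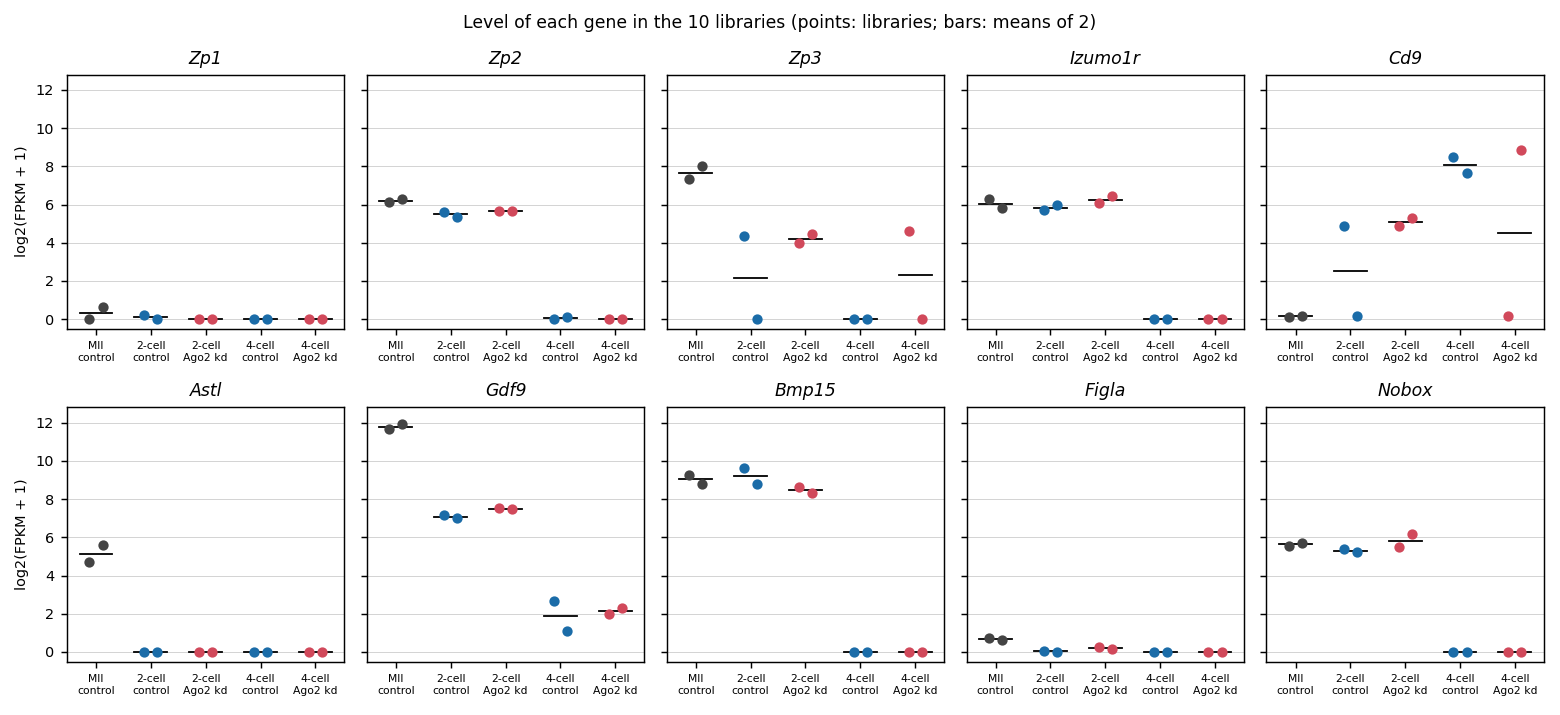
Level of each of the 10 genes on the y axis, as log2(FPKM + 1), in the 5 groups on the x axis; each point is 1 library and each bar the mean of 2. Zp2, Izumo1r, Bmp15 and Nobox had 38.2 FPKM or more on average up to the 2-cell stage and were at or near 0 at the 4-cell stage, Gdf9 was lower at both steps, Astl was above 0 in oocytes only, and Cd9 was highest in 3 of the 4 4-cell libraries.

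In MII oocytes the growth factors had the highest levels of the 10 genes. Gdf9 had 3568 ± 453.1 FPKM (mean ± SD, n = 2) and ranked 12 and 14 among all genes of the 2 libraries. Bmp15 followed with 527.1 ± 110.7 FPKM and Zp3 with 205.9 ± 67.7 FPKM. Zp2 (72.3 ± 6.10 FPKM) and Izumo1r (65.9 ± 16.2 FPKM) overlapped between libraries, and so did Nobox (48.8 ± 4.13 FPKM) and Astl (36.0 ± 15.2 FPKM). The remaining 3 were below 1 FPKM in both oocyte libraries: Figla had 0.583 ± 0.0770 FPKM, Zp1 0.284 ± 0.402 FPKM and Cd9 0.105 ± 0.0286 FPKM. The 10 genes together took 0.939% and 1.05% of the summed FPKM of the oocyte libraries, of which Gdf9 alone made up 76.8% and 80.6%. In control 2-cell embryos they took 0.570% and 0.344%, and in control 4-cell embryos 0.135% and 0.0847%, mostly from Cd9.

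A filter of at least 1 FPKM in at least 2 libraries left 8726 genes for the test, among them 8 of the 10. Zp1 and Figla did not pass it. Astl passed only through its values in oocytes, so a lower level in embryos was fixed by the filter, and the counts are also given without it. Changes were tested with limma on log2(FPKM + 1), with p-values adjusted by Benjamini-Hochberg over all 8726 genes and called at an adjusted p below 0.05. The SE of a gene is pooled over all 5 groups and is the same in each comparison of 2 groups. A log2 difference on this scale understates the change of a gene near 0, and none is given for a gene listed at 0 in both libraries of a group. Medians over genes include such genes, with values that depend on the pseudocount.

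From MII oocyte to control 2-cell embryo, 2 of the 8 genes were called lower and 0 higher, with 3 at an unadjusted p below 0.05. Over all genes tested 14.2% were called lower and 6.54% higher. The median difference was -0.52 over the 8 genes and -0.06 over all genes tested. The 2 genes were Gdf9 and Astl, and Zp3 was the third at an unadjusted p. Without Astl, 1 of 7 was called lower and the median was -0.34. Bmp15, Zp2, Izumo1r and Nobox did not pass.

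From control 2-cell to control 4-cell embryo, 5 of the 8 were called lower and 0 higher, with 5 at an unadjusted p below 0.05. Here 17.5% of all genes tested were called lower and 21.1% higher. The median difference was -5.25 over the 8 genes and 0.24 over all. The 5 genes were Zp2, Izumo1r, Gdf9, Bmp15 and Nobox. Astl, listed at 0 in every embryo library, could not change here, and without it 5 of 7 were lower with a median of -5.29. From MII oocyte to 4-cell embryo, 7 were called lower and 1, Cd9, higher, against 26.3% and 22% of all genes tested. Without Astl, 6 of 7 were lower. These comparisons share the control 2-cell or the other control libraries, so they are not independent of each other.

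**Figure D2:**
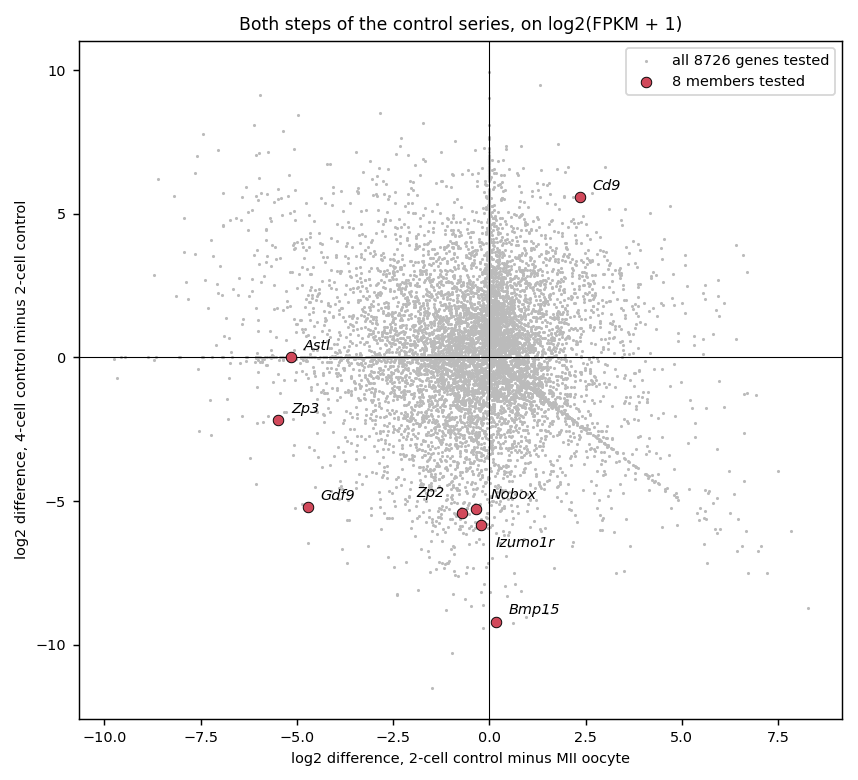
Each point is 1 gene, with the log2 difference of the first step (2-cell control minus MII oocyte) on the x axis and that of the second step (4-cell control minus 2-cell control) on the y axis, both on log2(FPKM + 1); grey points are all 8726 genes tested and red points the 8 members. Zp2, Izumo1r, Nobox and Bmp15 sit near 0 on the x axis and low on the y axis, where the place of Izumo1r, Nobox and Bmp15, listed at 0 in the 4-cell controls, depends on the pseudocount, Gdf9 is low on both, and Cd9 alone is above 0 on both.

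Zp2 encodes the zona glycoprotein that sperm bind and that ovastacin cleaves. Its level was 67.9 and 76.6 FPKM in MII oocytes, 48.5 and 39.7 FPKM in control 2-cell embryos, and 0 and 0.0843 FPKM in control 4-cell embryos. The oocyte libraries lay above the 2-cell libraries, and both above the 4-cell libraries. The first step was -0.70 (SE 0.32) on the log2 scale and did not pass the adjustment (adjusted p from limma = 0.178), and the second was -5.43 (SE 0.32, adjusted p from limma = 7.08e-05). The control 2-cell mean was 61.0% of the oocyte mean. After Ago2 kd, Zp2 had 48.8 and 49.6 FPKM at the 2-cell stage, with 0 listed in either 4-cell library.

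Zp3 encodes another of the glycoproteins that build the zona filaments. It had 158.0 and 253.7 FPKM in MII oocytes, 19.4 and 0 FPKM in control 2-cell embryos, and 0 in each control library of the 4-cell stage. All embryo libraries lay below the oocyte libraries. The first step was -5.48 (SE 1.75, adjusted p from limma = 0.0706, unadjusted p from limma = 0.0169) and the second did not pass (adjusted p from limma = 0.365). Without control 2-cell replicate 1, the library with 19.4 FPKM, the first step passed (adjusted p from limma = 0.0382), and without replicate 2 it was -3.30 and did not (adjusted p from limma = 0.302). The fall over both steps was called (adjusted p from limma = 0.0102), and leaving out any of the 4 libraries it compares gave adjusted p values from limma between 0.05 and 0.0646, not below the threshold. In Ago2 kd embryos Zp3 had 14.8 and 20.9 FPKM at the 2-cell stage and 23.5 and 0 FPKM at the 4-cell stage. The 23.5 FPKM came from the library that stood apart.

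Zp1, whose product cross-links the zona filaments, was at or near 0 throughout, with 0 and 0.569 FPKM in MII oocytes and 0.177 and 0 FPKM in control 2-cell embryos. It was listed at 0 in the other 6 libraries. The ratio of Zp3 to Zp2 within a library does not depend on how libraries are scaled to each other. It was 2.33 and 3.31 in MII oocytes, 0.400 and 0 in control 2-cell embryos, and after Ago2 kd 0.304 and 0.422 at that stage, so the oocyte libraries lay above all 2-cell libraries. An exact permutation test of 2 against 2 libraries cannot give a two-sided p below 0.333, which was its value for oocytes against control 2-cell embryos.

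The E-box letters of the Zp3 promoter are shown because FIGLA binds E-boxes in zona promoters and the Figla row was itself at or below 0.637 FPKM. Binding was not measured here, and a low listed value does not show that the mRNA was absent. The 250 bases before the RefSeq start (table build GRCm38.p6) follow, with CANNTG in capitals, together with CAACTA, the reverse complement of TAGTTG.
Zp3 (chr5:135979855-135980104, plus strand): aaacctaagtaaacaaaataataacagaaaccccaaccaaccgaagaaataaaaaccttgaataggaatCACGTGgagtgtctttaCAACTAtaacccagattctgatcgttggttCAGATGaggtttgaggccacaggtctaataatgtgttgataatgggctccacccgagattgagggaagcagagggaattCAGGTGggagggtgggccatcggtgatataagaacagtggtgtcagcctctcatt
Both strands were searched. Zp3 held CANNTG at -181, -134 and -55, counted from the start, the first of them as CACGTG, and TAGTTG on the other strand at -164. CANNTG was present in 66.2% of 32851 promoters, CACGTG, a subset of it, in 6.02% and the NOBOX letters, any of the 3 forms, in 16.1%. The promoter table held 7 of the 10 genes, without Zp1, Zp2 and Gdf9.

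Izumo1r, the gene of JUNO, had a control 2-cell mean of 85.5% of the oocyte mean and was called lower at the second step. It had 77.3 and 54.4 FPKM in MII oocytes and 51.6 and 61.0 FPKM in control 2-cell embryos, with overlapping ranges, and 0 in each control library of the 4-cell stage. The first step was -0.21 (SE 0.35, adjusted p from limma = 0.788), and the second was called (adjusted p from limma = 7.38e-05). In Ago2 kd embryos it had 66.6 and 86.0 FPKM at the 2-cell stage, with 0 listed in either 4-cell library.

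Astl had 25.2 and 46.7 FPKM in MII oocytes and was listed at 0 in all 8 embryo libraries, control and Ago2 kd alike. The mRNA of the protease was thus no longer listed above 0 at 40 h, when the mRNA of its substrate Zp2 still had 61.0% of its oocyte level.

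Cd9 ran the other way and was the least reproducible of the set. It had 0.0847 and 0.125 FPKM in MII oocytes, 28.0 and 0.108 FPKM in control 2-cell embryos, and 356.8 and 203.1 FPKM in control 4-cell embryos. The 4-cell libraries lay above all others of the control series, and the 2-cell libraries spanned the gap. Neither single step passed (adjusted p from limma = 0.633 and 0.151). The rise over both steps was 7.93 (SE 2.69, adjusted p from limma = 0.0460), and its adjusted p lay between 0.00372 and 0.159 over the alternatives, above the threshold in 8 of them. In Ago2 kd embryos Cd9 had 28.5 and 38.9 FPKM at the 2-cell stage and 0.108 and 458.9 FPKM at the 4-cell stage, the low value again in the library that stood apart. Cd9 lies on chromosome 6 (125460266 to 125494791, minus strand) and overlaps 2 annotated noncoding genes on the plus strand, Gm28809 and Gm26728. Whether the libraries kept the strand is not given in the sources used here, so reads of these genes and of Cd9 cannot be told apart. Gapdh, which every cell uses, was at or below 0.167 FPKM in all libraries, so a low or 0 value of Cd9 or any other gene was not read as absence of its mRNA.

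Gdf9, the growth factor with the highest level in oocytes, fell at both steps. It had 3248 and 3888 FPKM in MII oocytes, 143.2 and 127.3 FPKM in control 2-cell embryos, and 5.40 and 1.13 FPKM in control 4-cell embryos. The 3 groups did not overlap. The first step was -4.71 (SE 0.50, adjusted p from limma = 0.00122), a mean of 3.79% of the oocyte level, and the second was -5.20 (SE 0.50, adjusted p from limma = 0.000431), down to 0.0916% of it. At the 4-cell stage Gdf9 was the only 1 of the 7 genes above 2 FPKM in oocytes that was above 0 in all 4 libraries, control and Ago2 kd.

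Bmp15, the partner of Gdf9 in granulosa cell signalling, was called lower at the second step only among the single steps, and whether the first steps of the growth factors differ is addressed by their ratio. It had 605.4 and 448.9 FPKM in MII oocytes and 787.1 and 436.1 FPKM in control 2-cell embryos, where the ranges overlapped, and 0 in each control library of the 4-cell stage. The first step was 0.17 (SE 0.37, adjusted p from limma = 0.860), and the second was called (adjusted p from limma = 3.90e-05). Bmp15 lies on the X chromosome (6314107 to 6320721, minus strand) with 1 annotated transcript. Its promoter held TAATTA at -225, as did that of no other of the 7 genes found. The form TAGTTG was found in the promoter of Zp3 and, at -102, in 1 promoter of Astl (chr2:127341386-127341635). The other Astl promoter (chr2:127338389-127338638) held neither CANNTG nor the NOBOX letters. The share of promoters with TAATTA alone was not computed. The Bmp15 promoter held CANNTG once, at -201, and its TAATTA and CANNTG are in capitals here.
Bmp15 (chrX:6320725-6320974, minus strand): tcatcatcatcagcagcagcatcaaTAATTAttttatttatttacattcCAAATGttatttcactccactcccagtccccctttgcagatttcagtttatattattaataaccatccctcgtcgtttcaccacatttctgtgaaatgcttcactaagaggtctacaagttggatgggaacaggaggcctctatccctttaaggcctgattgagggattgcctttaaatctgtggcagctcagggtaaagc

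The order of the growth factors was reversed between the MII oocyte and the 2-cell embryo. The ratio of Gdf9 to Bmp15 within a library was 5.36 and 8.66 in MII oocytes and 0.182 and 0.292 in control 2-cell embryos, without overlap. In 2-cell Ago2 kd embryos it was 0.462 and 0.570, above both control values. Both differences had an exact permutation p of 0.333, the smallest possible with 2 against 2 libraries. The ratio of Gdf9 to Zp2 was 47.8 and 50.8 in oocytes and 2.95 and 3.21 in control 2-cell embryos, and that of Bmp15 to Zp2 was 8.91 and 5.86 in oocytes and 16.2 and 11.0 in control 2-cell embryos. The ratio of Nobox to Zp2 was 0.675 in both oocyte libraries and 0.837 and 0.905 in control 2-cell embryos.

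**Figure D3:**
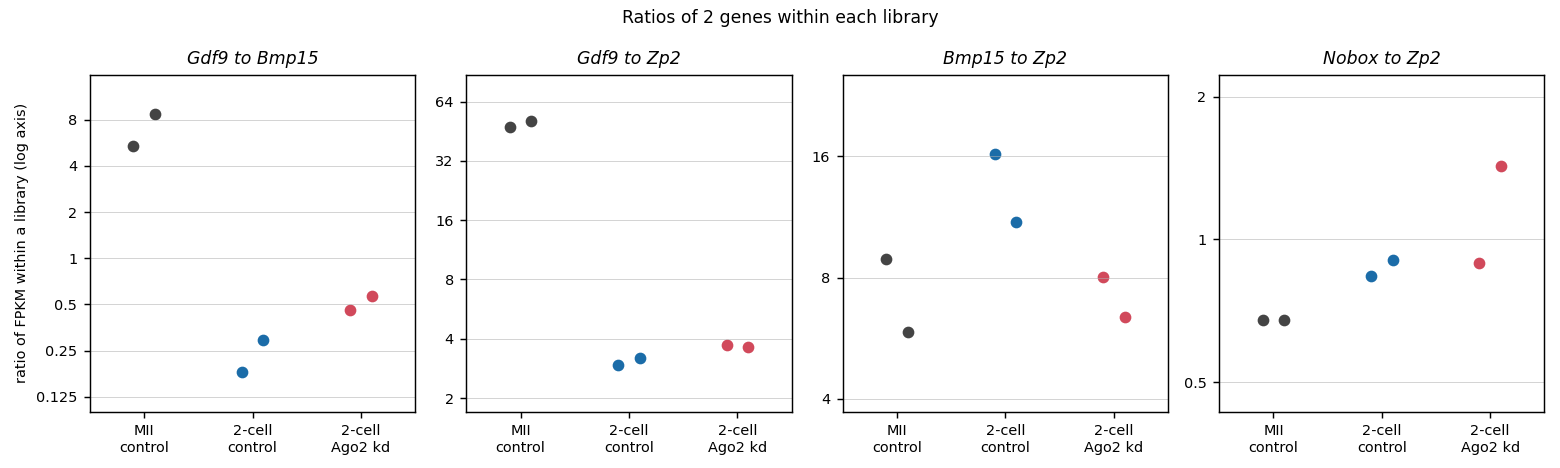
Ratio of the FPKM of 2 genes within a library, on a log y axis that differs between panels, in MII oocytes, control 2-cell embryos and 2-cell Ago2 kd embryos on the x axis; each point is 1 library. Gdf9 to Bmp15 was 5.36 and 8.66 in oocytes and between 0.182 and 0.570 in the 4 libraries of 2-cell embryos.

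Nobox was listed with 45.8 and 51.7 FPKM in MII oocytes, 40.6 and 35.9 FPKM in control 2-cell embryos, and 0 in both control 4-cell libraries. The oocyte values lay above the control 2-cell values by less than the test resolved (-0.34, SE 0.36, adjusted p from limma = 0.599), and the second step was called (adjusted p from limma = 0.000113). In Ago2 kd embryos Nobox had 43.6 and 70.7 FPKM at the 2-cell stage and was listed at 0 at the 4-cell stage. Figla had 0.637 and 0.528 FPKM in MII oocytes, 0.0512 and 0 FPKM in control 2-cell embryos, 0.192 and 0.112 FPKM in 2-cell Ago2 kd embryos, and was listed at 0 in all 4 4-cell libraries. Its values did not overlap between oocytes and embryos but all lay below 1 FPKM.

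Sorted by the study's thresholds on log2(mean FPKM + 1), maternal meaning over 2 FPKM in oocytes, 4 of the 7 maternal members were lower at the 4-cell stage only (Zp2, Izumo1r, Bmp15, Nobox), 2 were lower at both steps (Zp3, Gdf9) and 1 was lower at the 2-cell stage only (Astl). Among all 4825 maternal genes these shares were 18.8%, 14.4% and 22.8%. For the class lower at the 4-cell stage only, the study's printed conditions on the first step exclude each other. A first step of at most 1 log2 unit either way was used in their place, so that class is not the study's own. The thresholds use means alone, and Zp3 reached its place with an adjusted p of 0.0706 from limma at the first step.

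These first-step values depend on the scale. The summed FPKM of the oocyte libraries were over those of the 2-cell libraries, and with each library scaled to the same total the median over all genes tested moved from -0.06 to 0.24 and the calls from 1240 lower and 571 higher to 633 lower and 954 higher. On that scale Zp2, Izumo1r and Nobox were 0.46, 0.96 and 0.81 above the oocyte level and Bmp15 1.35, none of them called. Gdf9 was called lower at the first step, and Zp2, Izumo1r, Gdf9, Bmp15 and Nobox at the second, under each alternative of scaling, pseudocount, filter and fit that was tried.

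Ago2 kd embryos were compared with control embryos of the same stage. At the 2-cell stage 0 of the 8 genes were called by limma and 0 had an unadjusted p below 0.05. Over all genes tested 0.55% were called and 5.96% had an unadjusted p below 0.05, so a count of 0 does not set the 8 apart. The lowest unadjusted p was that of Bmp15 (0.0889, adjusted p from limma = 0.984), which had 392.1 and 315.6 FPKM after Ago2 kd and 787.1 and 436.1 FPKM in control embryos, a difference of -0.73 (SE 0.37). Gdf9 was at 181.0 and 179.9 FPKM after Ago2 kd against 143.2 and 127.3 FPKM (0.42, SE 0.50), Nobox differed by 0.53 (SE 0.36), Izumo1r by 0.43 (SE 0.35), Zp2 by 0.16 (SE 0.32), Zp3 by 2.05 (SE 1.75) and Cd9 by 2.60 (SE 2.69). Each SE is pooled over all 5 groups, so it also holds the spread at other stages. For Gdf9 the replicates lay furthest apart, on the log2 scale, in control 4-cell embryos (5.4 and 1.13 FPKM). For Izumo1r, Bmp15 and Nobox the 4-cell groups, listed at 0, added no spread. Single libraries set the size of most of these differences. On leaving out 1 library, Cd9 ranged from 0.24 (without control replicate 2) to 4.95 (without control replicate 1) and Bmp15 from -1.16 to -0.31 (the same libraries), Nobox from 0.19 (without Ago2 kd replicate 2) to 0.87 (without Ago2 kd replicate 1) and Izumo1r from 0.24 to 0.61 (the same), and Zp2 from 0.02 (without control replicate 2) to 0.30 (without control replicate 1). The median difference was 0.42 over the 8 genes and 0 over all. Astl, listed at 0 in every embryo library, could not differ, and without it 0 of 7 were called and the median was 0.43.

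Both Ago2 kd libraries lay above both control libraries at the 2-cell stage in 5 of the 8 genes (Zp2, Izumo1r, Cd9, Gdf9, Nobox) and below them in 1 (Bmp15), which 14.4% and 14.7% of all genes tested did. With libraries scaled to the same total, or to the same median of expressed genes, it was 4 (without Zp2) and 0. For Zp2 the ranges were parted by 48.8 against 48.5 FPKM. Astl, listed at 0 in every library compared, could lie neither above nor below.

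At the 4-cell stage 0 of the 8 genes were called by limma and 0 had an unadjusted p below 0.05, against 4% and 15.4% of all genes tested. The lowest unadjusted p was 0.226, for Cd9. Izumo1r, Bmp15, Nobox and Astl were listed at 0 in all 4 libraries of the stage and could not differ. These counts therefore bear only on Zp2, Zp3, Cd9 and Gdf9. Without Astl alone, 0 of 7 were called. Zp2 had 0.0843 FPKM in 1 control library and 0 in the others. Gdf9 had 2.98 and 3.96 FPKM after Ago2 kd, between its control values of 5.40 and 1.13 FPKM (0.27, SE 0.50). Zp3 had 23.5 and 0 FPKM after Ago2 kd and was listed at 0 in both controls (adjusted p from limma = 0.630). Cd9 differed by -3.58 (SE 2.69), and by 0.77 without the library that stood apart, from which the 23.5 FPKM of Zp3 also came. In no member did both Ago2 kd libraries lie above or below both control libraries, as they did in 20.1% and 16.9% of all genes tested. Izumo1r, Bmp15, Nobox and Astl could lie neither above nor below. A gene listed at 0 in the controls leaves a lower value no room in this table, and a listed 0 does not show that the mRNA was absent.

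A difference of the Ago2 kd effect between the stages passed the test of the interaction in 0 of the 8 genes (0 called by limma, 0 at an unadjusted p below 0.05, lowest adjusted p = 0.571), against 2.28% of all genes tested called. Without Astl, which could not differ, it was 0 of 7. Izumo1r, Bmp15 and Nobox were listed at 0 in every 4-cell library, so their interaction was only the 2-cell difference with its sign turned. For them the test cannot compare the effect between the stages. Within the Ago2 kd embryos the second step was called lower in 5 of the 8 genes (5 of 7 without Astl), where 16.5% of all genes tested were. They were Zp2, Izumo1r, Gdf9, Bmp15 and Nobox, the same 5 as in control embryos, with adjusted p values from limma between 4.92e-05 and 0.000514. The log2 difference of Gdf9 was -5.35 (SE 0.50) within Ago2 kd and -5.20 (SE 0.50) within control embryos. Leaving out the library that stood apart left the count at 5. Of the 5, only Gdf9 was above 0 in the Ago2 kd 4-cell libraries. Oocyte markers summed to 74.1 and 77.7 FPKM in those libraries and to 44.1 and 37.0 FPKM in the controls, with 1 of the 7 called higher, and their part in these results was not tested.

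**Figure D4:**
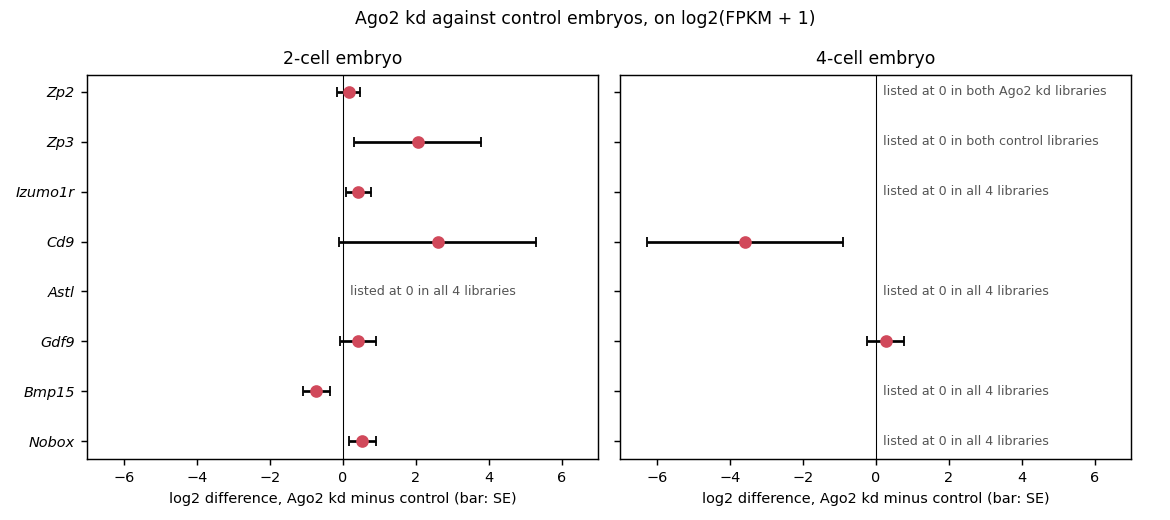
Difference of Ago2 kd from control embryos on log2(FPKM + 1) on the x axis, with its SE from limma as the bar, for the 8 genes tested at the 2-cell (left) and 4-cell stage (right); a gene listed at 0 in both libraries of a group is marked so and has no point. At the 2-cell stage the bars of Zp3 and Cd9 are widest, with an SE of 1.75 and 2.69, pooled over all 5 groups and not specific to that stage. At either stage 0 of the 8 genes were called, and a gene listed at 0 in all libraries of a stage could not be.

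The levels of 4 members moved almost as 1 across the 10 libraries. Pearson's r of log2(FPKM + 1) lay between 0.990 and 0.998 for the 6 pairs of Zp2, Izumo1r, Bmp15 and Nobox. With them Gdf9 had an r between 0.889 and 0.923, Zp3 between 0.590 and 0.641 and Astl between 0.401 and 0.479, whereas Cd9 had a negative r with every other member. The 10 points of each r share stage and library, so r describes mostly the stages. Among 5836 other genes with a range of at least 2 log2 units over the group means, those most like Nobox were Hsd3b7 (r = 0.999), Nlrp4f (0.998) and Echdc3 (0.998). Nlrp4f, of an oocyte gene family, had 598.1 and 469.4 FPKM in MII oocytes, 402.9 and 290.0 FPKM in control 2-cell embryos and 0 in all 4-cell libraries. Most like Gdf9 were Bpgm (0.995), Tmem109 (0.994) and Gm4981 (0.994). Bpgm, which encodes an enzyme of a side branch of glycolysis, had 4540 and 4664 FPKM in MII oocytes, 332.1 and 310.0 FPKM in control 2-cell embryos and 19.4 and 7.73 FPKM in control 4-cell embryos. Most like Zp3 were Il23a (0.947), Eepd1 (0.937) and Gm15454 (0.929), and most like Cd9 were Arpc1a (0.934), Atp6v1e1 (0.921) and Cops5 (0.907). These genes were picked by r over the same libraries, so values shared with the member follow from the choice. Arpc1a, an actin nucleation subunit, had 14.3 and 0.164 FPKM in control 2-cell embryos, uneven as those of Cd9 were. In 2-cell Ago2 kd embryos it had 2.40 and 16.1 FPKM, where Cd9 had 28.5 and 38.9 FPKM.

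Other genes of the egg surface, of the cortical granules and of egg activation were taken from a list of 24, of which 20 had rows and 17 were tested. At the first step 2 of the 17 were called lower and 0 higher, at the second 7 lower and 1 higher, and their median differences were -1.08 and -1.64. Over all genes tested 14.2% were lower and 6.54% higher at the first step and 17.5% and 21.1% at the second, with medians of -0.06 and 0.24, which are also the background of the lists that follow. Wee2, a kinase that keeps the oocyte in prophase arrest and is needed for exit from metaphase II, had 420.2 and 368.7 FPKM in MII oocytes, 690.1 and 533.4 FPKM in control 2-cell embryos and 0 in all 4-cell libraries, with a called second step (adjusted p from limma = 1.52e-05). Fbxo43, the inhibitor of the anaphase-promoting complex that holds the arrest, went from 253.1 and 207.9 FPKM to 55.8 and 47.9 FPKM and then 0 and 1.67 FPKM (adjusted p from limma = 0.0296 and 0.000604). The first of these calls was lost in 9 of 12 alternatives (adjusted p from limma up to 0.344), among them all scalings and the loss of any 1 library. Rab3a, a GTPase of cortical granule exocytosis, had 18.5 and 10.3 FPKM in the egg libraries, 10.5 and 12.2 FPKM in control 2-cell embryos and at most 0.0377 FPKM in control 4-cell embryos. Camk2g, the kinase that responds to the calcium rise at fertilization, fell over both steps from 65.8 and 56.4 FPKM to 0 (adjusted p from limma = 0.0161), a call lost without any 1 of the 4 libraries compared (adjusted p from limma up to 0.0816).

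Itgb1, an integrin chain of the egg membrane, had 44.8 and 38.2 FPKM in MII oocytes, was listed at 0 in all 4 2-cell libraries, had 37.7 and 55.4 FPKM in control 4-cell embryos and 0 in each Ago2 kd library of that stage. It was called lower at the first step (adjusted p from limma = 0.000191), higher at the second (adjusted p from limma = 9.57e-05) and lower after Ago2 kd at the 4-cell stage (adjusted p from limma = 0.000347), the only 1 of the 17 called there, where 4% of all genes tested were. That last call was lost when only the groups compared were fitted (adjusted p from limma = 0.185), a fit that called 0 of the 8726 genes at either stage, and it was kept in the other 11 alternatives. At the 2-cell stage 0 of the 17 were called after Ago2 kd and 1 had an unadjusted p below 0.05, against 0.55% and 5.96% of all genes tested. At the 4-cell stage 3 of the 17 had an unadjusted p below 0.05, against 15.4%. The partner of Cd9 on the egg, Cd81, was listed at 0 in 9 libraries and had 0.0298 FPKM in the other.

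Of 29 genes of the GDF9 and BMP15 pathway (other ligands, convertases, receptors, SMADs and their targets), 20 had rows and 12 were tested. At the first step 1 was called lower and 2 higher, and at the second 3 were lower and 0 higher, with median differences of -0.14 and -0.51. Bmpr1b, the BMP type I receptor through which BMP15 signals, had 43.8 and 24.6 FPKM in MII oocytes and was listed at 0 in both control 2-cell and all 4-cell libraries (adjusted p from limma = 0.000318 at the first step). In 2-cell Ago2 kd embryos it had 5.41 and 7.40 FPKM, and this difference was called (adjusted p from limma = 0.0380), the only 1 of the 12, where 0.55% of all genes tested were. The call was lost in 6 of 12 alternatives (adjusted p from limma up to 0.352): with only the groups compared, with the replicate block and without any 1 of the 4 libraries. Id2, a target gene of BMP signalling, was listed at 0 in MII oocytes and both control 4-cell libraries and had 24.5 and 32.3 FPKM in control 2-cell embryos (adjusted p from limma = 0.00519 for the rise and 0.00300 for the fall). Id1, another such target, went from 3.02 and 2.26 FPKM to 15.4 and 38.8 FPKM and back to 3.23 and 3.50 FPKM (adjusted p from limma = 0.0250 and 0.0220). These calls of Id1 were lost in 5 and 4 of 12 alternatives (adjusted p from limma up to 0.126 and 0.110), without control 2-cell replicate 2 in each case. Among the SMADs, Smad5 fell at the second step from 3.04 and 6.20 FPKM to 0, and Smad4 over both steps from 35.5 and 47.0 FPKM to 0 (adjusted p from limma = 0.0136 and 0.00788). Smad5 lost its call in 3 alternatives, without control 2-cell replicate 2 or either control 4-cell library (adjusted p from limma up to 0.0678), and Smad4 in 1, without MII replicate 2 (adjusted p from limma = 0.0517). Kit, the oocyte receptor for the granulosa ligand KITL, fell over both steps from 7.16 and 6.48 FPKM to 0.539 and 0.743 FPKM (limma, adjusted p = 0.0164), a call lost in 6 of 12 alternatives (adjusted p from limma up to 0.0900), with equal totals, quantile normalization or without any 1 of the 4 libraries. The type II receptor Bmpr2 was at or below 0.0810 FPKM in all libraries. At the 2-cell stage 3 of the 12 had an unadjusted p below 0.05 after Ago2 kd, where 5.96% of all genes tested did. At the 4-cell stage 0 of the 12 were called after Ago2 kd and 1 had an unadjusted p below 0.05, against 4% and 15.4% of all genes tested.

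Among 14 oocyte transcription factors and partners of FIGLA, 11 had rows and 9 were tested, with 1 called lower at the first step, 2 at the second and 0 higher at either. The median differences were -0.78 and -1.37. Lhx8, a LIM homeobox factor of the early oocyte, resembled Nobox, with 44.9 and 73.8 FPKM in MII oocytes, 72.7 and 89.5 FPKM in control 2-cell embryos and 0 and 0.242 FPKM in control 4-cell embryos (adjusted p from limma = 0.000203 at the second step). Sub1, a transcriptional coactivator, went from 172.3 and 194.5 FPKM to 38.0 and 49.6 FPKM and then to 8.69 and 8.68 FPKM (adjusted p from limma = 0.0118 and 0.00539). Its first call was lost in 5 of 12 alternatives (adjusted p from limma up to 0.128), with equal totals, quantile normalization or without either MII library or control 2-cell replicate 1. Sohlh2, a bHLH factor of oocyte differentiation, fell over both steps from 24.3 and 30.1 FPKM to 0 (adjusted p from limma = 0.00470). After Ago2 kd 0 of the 9 were called by limma at the 2-cell or the 4-cell stage, where 0.55% and 4% of all genes tested were. At each stage 1 of the 9 had an unadjusted p below 0.05, against 5.96% and 15.4% of all genes tested.

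Genes known to be low in ovaries without Nobox formed a list of 8, of which 7 had rows and were tested, 3 of them (Oosp1, Zar1, Mos) also oocyte markers above. At the first step 5 of the 7 were called lower and at the second 4, with 0 higher at either and medians of -2.16 and -1.56, against 14.2% and 17.5% of all genes tested called lower. Zar1, needed to store maternal mRNA, went from 1189 and 1538 FPKM to 1.70 and 0.00486 FPKM (limma, adjusted p = 0.000552). Mos, the kinase that upholds the metaphase II arrest, went from 126.9 and 219.7 FPKM to 0.556 and 1.29 FPKM (limma, adjusted p = 0.000536), and H1foo, the oocyte linker histone, from 5458 and 5754 FPKM to 71.1 and 96.5 FPKM (limma, adjusted p = 0.00144). Rfpl4, an oocyte RING finger gene, had 8217 and 8145 FPKM in MII oocytes, 2735 and 3055 FPKM in control 2-cell embryos and 0 in all 4-cell libraries, and Oosp1, a secreted oocyte protein, went from 693.3 and 732.4 FPKM to 5.33 and 3.17 FPKM at the second step (adjusted p from limma = 1.47e-06 and 5.56e-05). After Ago2 kd 0 of the 7 were called by limma at the 2-cell or the 4-cell stage, where 0.55% and 4% of all genes tested were. At an unadjusted p below 0.05 there were 0 at the 2-cell and 4 at the 4-cell stage, against 5.96% and 15.4% of all genes tested. The 4 went both ways, Oosp1 (1.48) and Mos (1.48) higher and Pou5f1 (-1.50) and H1foo lower, named after their values were seen.

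**Figure D5:**
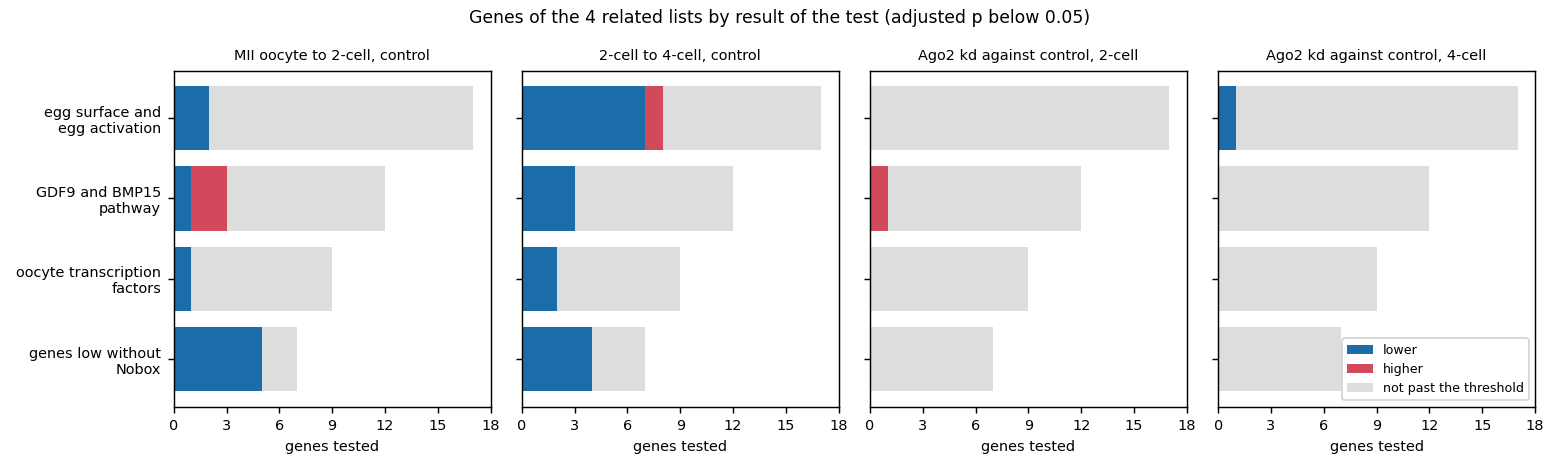
Number of genes on the x axis, for the 4 related lists on the y axis, that were called lower (blue), higher (red) or not past the threshold (grey) by limma in 4 comparisons. The longest blue bars are 7 of 17 genes of egg surface and activation at the second step and 5 of 7 genes low without Nobox at the first step, whereas 1 gene of each of 2 lists was called after Ago2 kd.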

How the data were processed

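The 10 RNA-seq libraries, 2 in each of 5 groups, were grouped by their labels. The authors trimmed reads with Trim Galore, aligned them to GRCm38.p6 with HISAT2 (2.1.0 in the submitters' processing notes) and deposited FPKM from StringTie, 1 value per gene name, for 21437 genes. How transcripts became 1 row is not given in the sources used here, and neither read counts nor depth can be had from FPKM, so precision was judged from replicates alone.

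FPKM were analysed as log2(FPKM + 1) in R 4.3.3 with limma 3.58.1, with 1 mean per group, all 10 libraries (5 residual degrees of freedom, prior 1.89) and a trend on the mean, for the 8726 genes that reached 1 FPKM in 2 or more libraries. Tests were two-sided with Benjamini-Hochberg adjustment. Positions and 3′ ends came from GENCODE M21, promoters from RefSeq (GRCm38.p6), by gene name. Ago2 was not analysed here. The members and the gene lists were chosen with earlier results of these data known. Named from each list were, per comparison, at most 3 called genes in each direction with the largest difference. A few others (Cd81, Bmpr2, Gapdh, Foxl2, Pou5f1) were named after their values were seen. Likeness was Pearson's r over the 10 libraries for 1 member of each role. Alternatives were a pseudocount of 0.1, no filter, scaling to equal total or median, quantile normalization, the replicate number as a block, a robust prior, only the groups compared, and leaving out each library. Deviations of same-numbered libraries correlated between -0.093 and 0.092, so the numbers 1 and 2 were not used as pairs in the main fit. Such an r cannot show whether same-numbered libraries were collected together. Figures were drawn with matplotlib 3.10.9.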

Additional observations from a re-analysis of the deposited data

How the results depend on the processing

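The rise of Cd9 from MII oocyte to 4-cell embryo, the 1 member called higher, was not called with a pseudocount of 0.1 (0 members), no filter (0), scaling to equal medians (0) or the replicate number as a block (0), and was 0 without each of the 4 libraries compared, so the count ranged from 0 to 0 on leaving out a library. The count of members called lower in that comparison was 6 without any of these 4 libraries, Zp3 being lost. The number of members called lower from MII oocyte to 2-cell embryo was 2 to 3 on leaving out a library. With the replicate block no other count of members was moved by over 1.5 times. Of 240 recomputed differences of called members, 228 stayed called in the same direction, 12 lost the call (those of Cd9 and Zp3 named here) and 0 turned. Of 228 differences that were not called, 14 turned and 1 (Zp3) passed. From MII oocyte to 2-cell embryo, Zp2 turned to 0.46 with equal totals and 0.28 with quantile normalization, Izumo1r to 0.96, 0.48 and 0.79, and Nobox to 0.81, 0.33 and 0.60 with equal totals, equal medians and quantile normalization. On leaving out a library, Izumo1r ranged from -0.46 to 0.04 and Bmp15 from -0.26 to 0.59. The difference of Ago2 kd from control embryos ranged from -0.13 to 4.22 for Zp3 at the 2-cell stage (-0.13 without control replicate 2, 4.22 against the control library listed at 0), from -0.53 to 1.06 for Gdf9 at the 4-cell stage (-0.53 without control replicate 2), and from -7.93 to 0.77 for Cd9 at the 4-cell stage (0.77 without Ago2 kd replicate 1). The number of members called after Ago2 kd was 0 in all 80 recomputed counts, to which a gene listed at 0 in every library compared could not add. A group left with 1 library is assumed to vary like the others. Scaling the non-overlapping 2-cell groups, and all alternatives for the genes of the related lists, were chosen after seeing the data. Of 35 named differences of list genes, 25 stayed called in each alternative, 10 lost the call in 1 or more and 0 turned. Without mitochondrial rows the share of the members in the summed FPKM was 1.01% in place of 0.994% in MII oocytes. The causes were not tested. Depth is unknown, so low values such as those of Zp1 and Figla have no counting interval.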
